A study of Rattus norvegicus and Mus musculus with 34 samples.

Results

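The comparison described here follows the healing of a bone defect in the rat jaw after its sensory nerve had been cut, from day 3 to day 7. Its members are the 8 sensory nerve- samples of those days, 4 rats on each day, among 34 samples of the series and 23 rats. The rule that picks them reads nerve state and day from the labels. All 23 were wild-type male Sprague Dawley rats, 6 to 8 weeks old, and all received a standardized periodontal bone defect in the mandible. In the sensory nerve- rats a segment of the inferior alveolar nerve, the trigeminal branch that gives the lower jaw its sensation, was removed in the same operation. In the sensory nerve+ rats, of which 3 of day 3 and 4 of day 7 serve as the nearest comparison, the nerve was left in place. The tissue inside the defect was taken whole as a mixture of cells, and messenger RNA was sequenced. The surgery removes neither the nerve cell bodies in the trigeminal ganglion nor the autonomic fibres that reach the jaw with the vessels, and it targets no gene, so the counts hold no direct check of it.

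Bone defects in the jaw heal through overlapping phases. Clot and damaged tissue first draw neutrophils and monocytes, which release chemokines and cytokines, while stromal and vascular cells divide and fill the space with granulation tissue. Macrophages then clear debris, fibroblasts lay down and order a collagen matrix, osteoclasts resorb damaged bone and osteoblasts form new bone. Sensory axons in periosteum and periodontal ligament release CGRP, a neuropeptide that acts on vessels, macrophages and bone cells through the receptor Calcrl with its partner Ramp1.

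Library totals were 17830593 to 18742274 counts at day 3 and 16080421 to 18092134 at day 7. Correlations of log2 CPM (counts scaled to library size and composition) had a median of 0.931 within day 3, 0.931 within day 7 and 0.862 between the days. The 4 day 7 libraries were deposited in a table of their own, so day and table cannot be told apart. Of 14377 genes with a mean of at least 1 CPM, 0 had all 4 of these libraries outside the range of the other 19 rats. The number was also 0 for the 4 sensory nerve+ libraries of day 7, which share a table with day 3. It was 43 and 76 for the sensory nerve- libraries of day 3 and day 14. Day 7 lies between days 3 and 14, so this check cannot show whether the table had an effect. Of 20022 genes, 13 were at 0 in all 4 sensory nerve- libraries of day 7 while the other rats had a mean of 10 counts or more. This count was made for no other group, and such a mean can come from few rats. Hemoglobin genes took 1.98% to 11.95% of the counts at day 3 and 1.54% to 13.3% at day 7. Skeletal muscle genes took 0.00557% to 0.146% at day 3 and 0.391% to 7.59% at day 7. Single libraries stood apart in muscle genes (day 7 replicate 1, day 3 replicate 4), Schwann cell genes (day 3 replicate 2), tooth genes (day 3 replicate 3) and neutrophil granule genes (day 3 replicate 1), and results that rest on them are given with and without them.

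At day 7, 537 of 14576 tested genes were higher than at day 3 and 987 were lower (edgeR's quasi-likelihood test, adjusted p under 0.05), together 1524 genes or 10.5%. The median log2 fold change was 1.86 in the higher genes and -0.84 in the lower genes, beside a median of -0.01 over all tested genes. A change of more than 1 on the log2 scale was reached by 406 of the higher and 402 of the lower genes. In 3179 genes (21.8%) the 4 rats of one day did not overlap the 4 of the other, and 1513 of the 1524 called genes were among them. DESeq2 called 3217 genes (10.2% of tested genes as higher and 11.8% as lower), of which 46.4% were higher against 35.2% in edgeR, and 1514 of edgeR's 1524 genes were among them. The number of edgeR calls depended on single rats. Without day 3 replicate 1 it called 0 genes (smallest adjusted p = 0.0545, 3602 genes at an unadjusted p under 0.05, against 4193 or 28.8% of tested genes with all rats), and without day 7 replicate 3 it called 3. Without these 2 rats DESeq2 called 2511 and 2387 genes and limma-trend 519 and 663. In the same fits of edgeR all 1524 genes had the sign they had with all rats, which is fixed beforehand in the 1513 genes without overlap.

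**Figure D1:**
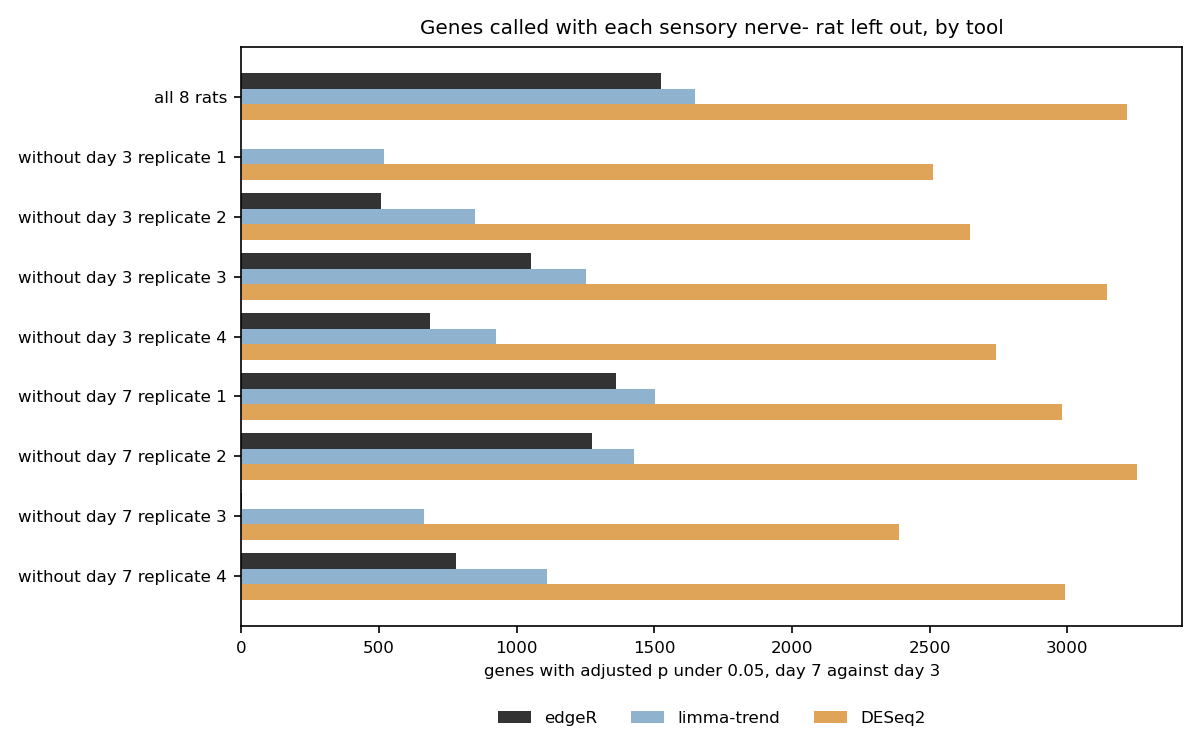
Number of genes with an adjusted p under 0.05 between day 7 and day 3 (horizontal axis, from 0) with all 8 sensory nerve- rats and without each rat in turn, by edgeR, limma-trend and DESeq2. The edgeR bar is at 0 without day 3 replicate 1 and at 3 genes without day 7 replicate 3, where limma-trend called 519 and 663 genes.

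Genes of cell division fell together. Of 23 cell cycle genes, 22 were lower at day 7 and 0 higher, where 6.77% of all tested genes were lower and 3.68% higher. These 2 shares are the background of every list below. A single call lies near them in a list of this size, but is a larger share in a list of 7 or fewer tested genes. All 23 had their day 7 rats below their day 3 rats, as had 13.3% of all tested genes, and their median log2 fold change was -1.76. The 1 gene not called, Aurkb, a kinase of chromosome segregation, had a log2 fold change of -1.54 (adjusted p = 0.0642). In this bulk tissue fewer dividing cells and less RNA per cell cannot be told apart, here and for every cell type below.

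Among the replication genes named, the rats of each day lay close together, which picking by the smallest p favours. Mcm7, a subunit of the helicase that opens DNA for copying, stood at 98.3, 84.5, 77.6 and 88.4 CPM in the day 3 rats (values are given in the order of replicates 1 to 4) and at 37.0, 42.9, 33.5 and 31.3 CPM at day 7. The highest day 7 rat lay well below the lowest day 3 rat, and the log2 fold change was -1.27 ± 0.13 (SE, n = 4 and 4, adjusted p = 0.0140, the smallest value that any gene reached). Tyms, which makes thymidylate for DNA, went from 69.2 to 104 CPM down to 30.0 to 41.8 CPM (-1.42 ± 0.17), and Rrm1, the large subunit of ribonucleotide reductase, from 150 to 192 CPM down to 60.3 to 95.5 CPM (-1.30 ± 0.17). Cdk1 and Ccnb1 had lower fold changes with larger errors. Cdk1, the kinase that starts mitosis, stood at 100.2, 93.1, 70.0 and 73.6 CPM at day 3 and at 10.1, 37.5, 19.9 and 21.1 CPM at day 7 (-1.93 ± 0.36, adjusted p = 0.0197). Its partner Ccnb1 stood at 98.7, 89.4, 74.9 and 69.9 CPM and then at 8.28, 35.1, 15.6 and 17.6 CPM (-2.12 ± 0.40). In both genes day 7 replicate 1 was the lowest rat and, of that day, replicate 2 the highest. The list as a whole summed to 1877 to 2495 CPM at day 3 and to 403 to 976 CPM at day 7. edgeR called 0 of the 23 without day 3 replicate 1 and 0 without day 7 replicate 3, with medians of -1.67 and -1.74 and all 23 at an unadjusted p under 0.05 in both. DESeq2 called all 23 as lower in both fits, in which it called 9.14% and 8.92% of all tested genes as lower.

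The 250 bases before the annotated start of these 3 genes are shown because the members moved together. Capitals mark the letters CCAAT (the CCAAT box) and, in Cdk1, TTTGAA (the core of the cell cycle genes homology region, CHR) and, in Mcm7, GCGGGAA (the core of an E2F site), each searched on both strands. The sequences are from RefSeq on the build GRCr8, another build than that of the alignment, each in the direction of its gene: Ccnb1 at chr2:33655226-33655475 on the minus strand, Cdk1 at chr20:19265043-19265292 on the plus strand and Mcm7 at chr12:22163179-22163428 on the minus strand.
Ccnb1: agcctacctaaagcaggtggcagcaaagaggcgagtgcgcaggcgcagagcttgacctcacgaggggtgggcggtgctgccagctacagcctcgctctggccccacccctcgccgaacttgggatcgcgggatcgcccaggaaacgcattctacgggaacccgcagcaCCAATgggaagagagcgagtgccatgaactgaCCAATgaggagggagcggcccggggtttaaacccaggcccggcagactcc
Cdk1: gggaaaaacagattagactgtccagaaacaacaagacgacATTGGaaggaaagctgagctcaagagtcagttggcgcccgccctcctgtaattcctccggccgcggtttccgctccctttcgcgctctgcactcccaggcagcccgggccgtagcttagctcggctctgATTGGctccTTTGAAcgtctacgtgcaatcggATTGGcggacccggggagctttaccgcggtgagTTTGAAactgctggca
Mcm7: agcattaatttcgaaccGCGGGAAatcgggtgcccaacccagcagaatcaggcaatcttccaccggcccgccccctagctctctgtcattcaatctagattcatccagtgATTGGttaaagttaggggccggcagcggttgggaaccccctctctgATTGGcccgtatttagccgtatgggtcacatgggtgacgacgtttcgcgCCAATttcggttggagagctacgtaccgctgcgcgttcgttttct
The window of Ccnb1 held 2 CCAAT boxes, and TTTGAA was searched there on both strands and not found. Among all 27457 promoters, 34.3% held CCAAT, 16.0% TTTGAA and 3.58% GCGGGAA or their reverse complements in this window. Only 17 of the 23 cell cycle genes matched a promoter, so a share over the list is void. A match is a description of the letters and not of a bound site.

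**Figure D2:**
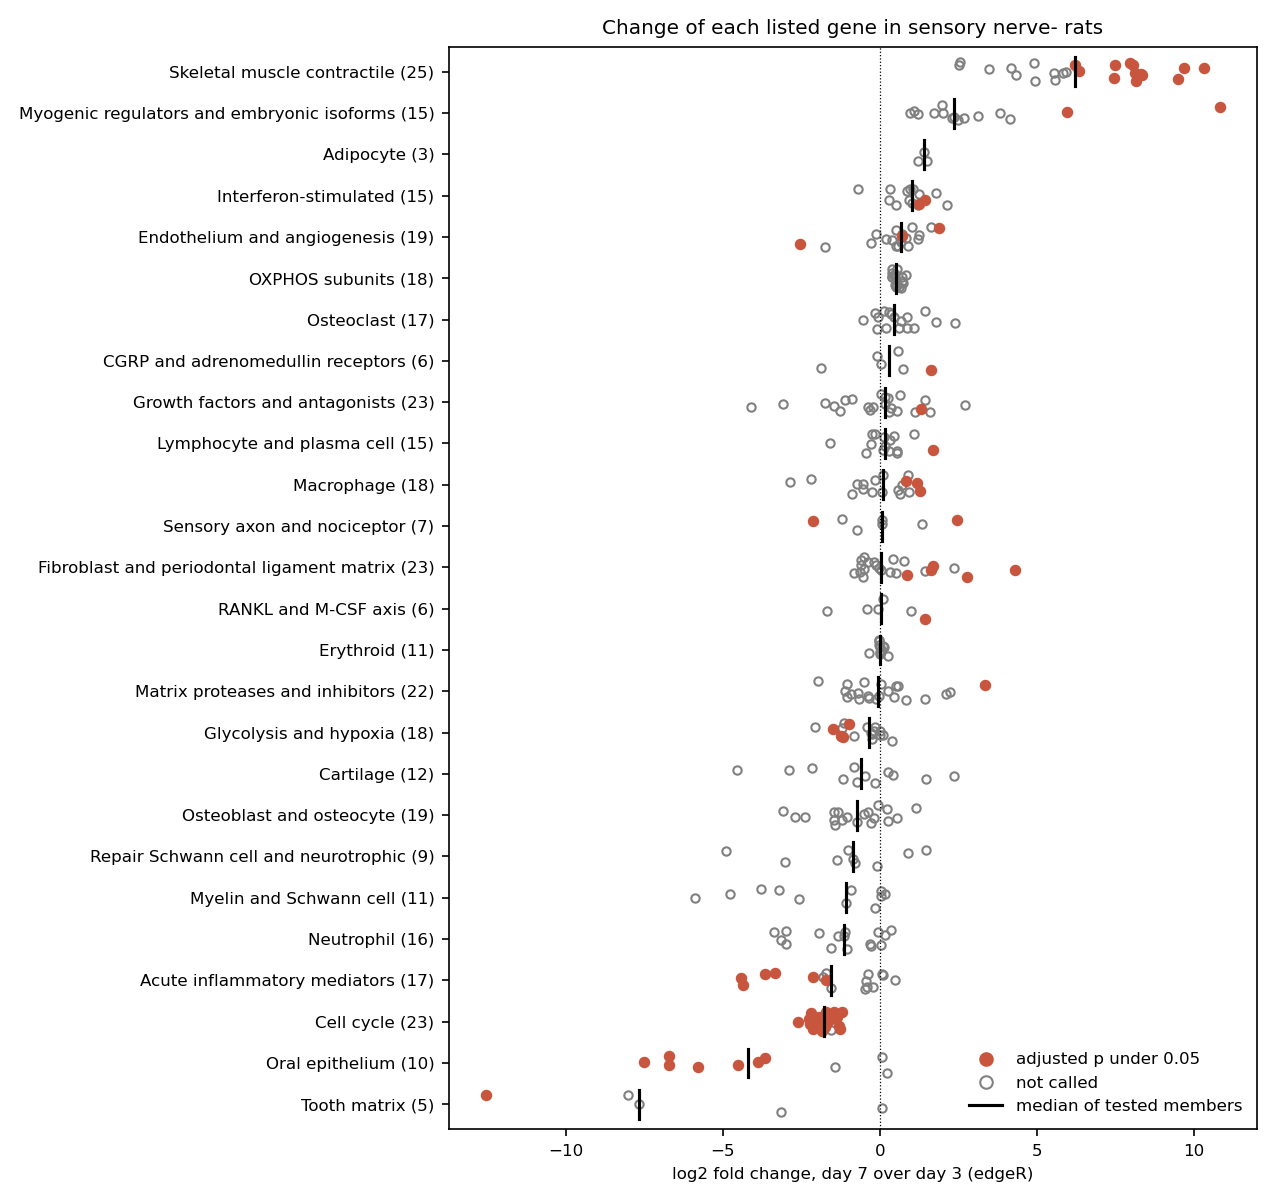
Log2 fold change of each tested gene between day 7 and day 3 in the sensory nerve- rats (horizontal axis) for 26 gene lists, with the number tested in parentheses. Filled points passed an adjusted p of 0.05 in edgeR, open points did not, and the bar is the list's median; the cell cycle list lies wholly below 0 (median -1.76) and the skeletal muscle list wholly above it (median 6.22).

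The genes with the smallest p among those that fell included, beside Mcm7, genes of ribosome assembly. Nop58, a core protein of the particles that modify ribosomal RNA, stood at 115.5, 103, 107 and 110 CPM at day 3 and at 48.9, 57.1, 46.5 and 44.8 CPM at day 7 (-1.14 ± 0.11, adjusted p = 0.0140). The replicates of each day lay within a narrow band and the bands were far apart, which picking by smallest p without overlap favours. Tsr1, which matures the small ribosomal subunit, went from 90.8 to 110 CPM down to 51.4 to 55.8 CPM (-0.90 ± 0.10). Lyar, a nucleolar protein, went from 29.4 to 37.3 CPM down to 13.5 to 15.7 CPM (-1.17 ± 0.13). Rangap1, which drives transport through the nuclear pore, fell by 1.30 on the log2 scale, Tubb4b, a beta tubulin, fell by 1.34, Mlec, a lectin of the endoplasmic reticulum, fell by 1.07, and Hdgf, a chromatin-bound growth factor, fell by 0.84. All of these had an adjusted p of 0.0140.

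Among genes that rose, those with the smallest p included matrix and secreted proteins. Abi3bp, a matrix protein of connective tissue, stood at 11.3, 20.03, 10.9 and 11.6 CPM at day 3 and at 93.3, 62.8, 73.3 and 99.2 CPM at day 7 (2.61 ± 0.26, adjusted p = 0.0140). Every day 7 rat was at least at 62.8 CPM and no day 3 rat was above 20.03. Lack of overlap was a condition for naming these genes. C1qtnf3, a secreted relative of complement C1q, went from 4.95 to 10.7 CPM up to 67.5 to 178.7 CPM (3.76 ± 0.41). Egfl6, a matrix protein of basement membranes, went from 0.225 to 0.562 CPM up to 3.65 to 14.4 CPM (4.54 ± 0.52), and Adamtsl4, a microfibril protein, from 13.5 to 25.5 CPM up to 66.3 to 103 CPM (2.01 ± 0.23). Pik3ip1, an inhibitor of PI3 kinase, rose by a log2 fold change of 1.59 ± 0.17. H1f2, a linker histone, went from 97.7 to 121 CPM up to 230 to 319 CPM (1.35 ± 0.14), and Klra17, a lectin-like receptor of natural killer and myeloid cells, from 3.36 to 4.64 CPM up to 19.9 to 59.8 CPM (3.23 ± 0.38). H1f2 and Klra17 belong to families of similar copies among which reads can be shared out, so their values are less certain.

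Of 17 tested mediators of acute inflammation, 6 fell and 0 rose, beside 6.77% and 3.68% of all tested genes, and the median of the 17 log2 fold changes was -1.55. The 6 were Tnf, Ptgs2, Ccl2, Cxcl1, Cxcl2 and Cxcl3. Of the 17, 5 had their day 7 rats wholly below their day 3 rats, beside 13.3% of all tested genes. Tnf, Ptgs2, Ccl2 and Cxcl3 were without overlap, so Cxcl1 or Cxcl2 was called although its rats overlapped. Ccl2, the main attractant of monocytes, stood at 59.1, 119, 104.5 and 128 CPM at day 3 and at 15.1, 30.9, 26.6 and 52.0 CPM at day 7 (-1.72 ± 0.39, adjusted p = 0.0332). The lowest day 3 rat and the highest day 7 rat were close to each other but did not overlap. Ptgs2, the inducible enzyme of prostaglandin synthesis, went from 5.10, 3.72, 16.8 and 4.11 CPM to 0.420, 0.861, 0.257 and 0.799 CPM (-3.66 ± 0.66, adjusted p = 0.0184). Tnf, the cytokine of early inflammation, went from 3.06 to 8.85 CPM down to 0.746 to 1.93 CPM (-2.12 ± 0.46). Cxcl3, a neutrophil chemokine, went from 13.1, 3.31, 2.09 and 27.2 CPM to between 0.230 and 0.733 CPM (-4.34 ± 0.90). Cxcl1, Cxcl2 and Cxcl3 resemble each other in sequence, and their log2 fold changes lay between -4.41 and -3.33.

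Other cytokines of the list did not pass. Il1b, the macrophage cytokine interleukin 1 beta, had 30.6, 8.21, 9.50 and 53.8 CPM at day 3 and 12.9, 34.1, 5.97 and 22.3 CPM at day 7, and the days overlapped widely (-0.44 ± 0.72, adjusted p = 0.723). Il6 stood at 1.28 to 2.35 CPM at day 3 and 0.600 to 1.998 CPM at day 7 (adjusted p = 0.533). Nos2, which makes nitric oxide in activated macrophages, ranged from 6.68 to 91.2 CPM at day 3 and from 1.34 to 25.6 CPM at day 7 (-1.79 ± 1.02, adjusted p = 0.284). Without day 3 replicate 4, the rat with the highest Nos2 and Il1b, the list's median was -0.47 and edgeR called 1 member as lower, beside 2.92% of all genes. DESeq2 called 6 with it and 6 without it, beside 9.94% of all genes as lower.

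Among 16 tested neutrophil genes, edgeR and DESeq2 called 0 and 1, with 2 at an unadjusted p under 0.05 in edgeR. Their median log2 fold change was -1.13, but 0.50 without day 3 replicate 1. In that rat Camp, an antimicrobial peptide of neutrophil granules, stood at 51.1 CPM against 0.409 to 3.38 CPM in the other day 3 rats and 0.120 to 3.56 CPM at day 7. Prtn3, a granule protease, stood at 7.68 CPM there and at no more than 0.789 CPM elsewhere. Il1r2, a decoy receptor for interleukin 1, had a log2 fold change of -1.93 ± 0.75 (adjusted p = 0.136).

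Macrophage genes did not move as 1 group. Of 18 tested, 3 rose, 0 fell, and the median log2 fold change was 0.09. The 3 were the chains of complement C1q, which resident and clearing macrophages make. C1qc stood at 35.2, 37.8, 36.5 and 42.8 CPM at day 3 and at 84.5, 71.0, 112 and 80.0 CPM at day 7 (1.19 ± 0.16, adjusted p = 0.0140). The day 3 rats lay close together and every day 7 rat was above them. C1qa went from 44.2 to 63.5 CPM up to 101 to 212 CPM (1.30 ± 0.25), and C1qb from 42.0 to 61.3 CPM up to 72.9 to 127 CPM (0.83 ± 0.21). Cd68, a lysosomal protein that marks macrophages and osteoclasts, ranged from 232 to 450.4 CPM at day 3 and from 181 to 864.5 CPM at day 7 (0.58 ± 0.46, adjusted p = 0.444). Arg1, an arginine-degrading enzyme of repair macrophages, stood at 51.6, 59.0, 66.1 and 329.5 CPM at day 3 and at 2.40, 27.4, 11.2 and 29.2 CPM at day 7. No rat overlapped, but the adjusted p was 0.0836 (-2.85 ± 0.91).

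Of 15 lymphocyte and plasma cell genes, 1 rose in edgeR, 0 fell, and the median was 0.16. Cd4, found on helper T cells and, in the rat, also on macrophages, went from 148, 123, 64.7 and 128 CPM to 172, 226, 536 and 568 CPM (1.70 ± 0.45, adjusted p = 0.0491). Cd8a, of cytotoxic T cells, stood at 65.6, 99.2, 90.5 and 136 CPM at day 3 and at 14.2, 37.0, 21.3 and 57.3 CPM at day 7. Its days did not overlap, yet edgeR put it just outside the threshold (-1.59 ± 0.44, adjusted p = 0.0550). DESeq2 placed it inside (adjusted p = 0.00432). Of 15 interferon-stimulated genes, 14 had a log2 fold change above 0 (median 1.01), and 2 passed in edgeR and 8 in DESeq2. Ifit2, an antiviral protein that binds RNA, went from 16.3 to 21.7 CPM up to 31.7 to 78.3 CPM (1.24 ± 0.32, adjusted p = 0.0461). Ifit3, its partner, was called (adjusted p = 0.0491) although its rats overlapped, since day 7 replicate 3 at 12.3 CPM lay below day 3 replicate 1 at 15.1 CPM.

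Osteoclast genes varied more between rats than between days. Of 17 tested, edgeR called 0 and DESeq2 1, with 1 at an unadjusted p under 0.05, and 13 had a log2 fold change above 0 (median 0.44). Ctsk, the protease that degrades bone collagen, stood at 1715, 491, 459 and 670 CPM at day 3 and at 574, 2258, 3363 and 11320 CPM at day 7 (2.39 ± 0.88, adjusted p = 0.120). Day 7 replicate 4 was the highest rat and day 7 replicate 1 lay below day 3 replicate 1. Acp5, the acid phosphatase stained as TRAP, followed the same rats, at 635.7, 162, 89.1 and 311 CPM and then 136, 663, 709 and 2636 CPM (1.79 ± 0.91, adjusted p = 0.233). Clcn7, the chloride transporter of the resorbing membrane, had 73.7 to 133 CPM at day 3 and 69.6 to 329 CPM at day 7. Oscar, a costimulatory receptor of osteoclasts, had a log2 fold change of 0.19 ± 0.65, and Mmp9, a gelatinase of osteoclasts and neutrophils, one of 1.43 ± 0.88 (adjusted p = 0.318). The summed list ran from 1335 to 5110 CPM at day 3 and from 1339 to 19090 CPM at day 7.

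Of the 6 genes of the RANKL and M-CSF axis, which steers osteoclast formation, 1 rose. Il34, another ligand of the M-CSF receptor, stood at 4.80, 5.71, 5.36 and 3.78 CPM at day 3 and at 18.9, 9.24, 12.9 and 12.7 CPM at day 7 (1.45 ± 0.26, adjusted p = 0.0175). All 4 day 7 rats lay above the day 3 rats. Tnfsf11, the ligand RANKL, stood at 2.14 to 3.42 CPM at day 3 and at 1.08, 3.10, 4.58 and 13.5 CPM at day 7 (0.99 ± 0.67, adjusted p = 0.367). Tnfrsf11b, its decoy receptor osteoprotegerin, had 12.03 to 57.1 CPM at day 3 and 4.02 to 12.5 CPM at day 7 (-1.67 ± 0.55, adjusted p = 0.0904).

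No osteoblast or osteocyte gene of 19 tested passed in edgeR, 3 had an unadjusted p under 0.05 and DESeq2 called 1. Their median log2 fold change was -0.73, and -0.25 without day 3 replicate 3. Sp7, a transcription factor required for osteoblasts, stood at 73.2, 30.6, 193 and 50.8 CPM at day 3 and at 2.46, 23.01, 26.7 and 13.9 CPM at day 7. Its days did not overlap, and its log2 fold change of -2.39 ± 0.79 did not pass (adjusted p = 0.0908). Runx2, the early osteoblast factor, ranged from 75.7 to 160 CPM and then from 26.1 to 93.7 CPM (adjusted p = 0.265). Phospho1, a phosphatase of mineralization, had 15.1 to 52.9 CPM at day 3 and 47.2 to 115 CPM at day 7 (1.15 ± 0.46, adjusted p = 0.142).

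The cartilage list gave 0 calls among 12 tested genes in edgeR, 2 at an unadjusted p under 0.05, and 1 in DESeq2, with a median of -0.59. Without day 3 replicate 3 the median was 0.22 and 8 of the 12 were above 0. Hapln1, a link protein of cartilage matrix, stood at 202 CPM in day 3 replicate 3 and at no more than 9.38 CPM in any other rat. Comp, a matrix protein of cartilage and tendon, had 0.300, 5.51, 0.357 and 0.676 CPM at day 3 and 5.22, 5.45, 11.8 and 13.1 CPM at day 7 (2.37 ± 0.96, adjusted p = 0.148). Col9a3, a chain of collagen IX, ranged from 0.394 to 54.6 CPM at day 3 and from 0.600 to 6.65 CPM at day 7.

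Within the fibroblast and periodontal ligament list 5 of 23 genes rose and 0 fell, while the median stayed near that of all genes at 0.05. The 5 were Ogn, Fmod and Aspn, small leucine-rich proteoglycans that bind collagen fibrils, Tnmd, a marker of tendon and ligament cells, and Fap, a protease of activated fibroblasts. Ogn stood at 105, 153, 198 and 85.6 CPM at day 3 and at 406.5, 591, 369 and 391 CPM at day 7 (1.70 ± 0.29, adjusted p = 0.0168). Tnmd stood at 4.62, 3.62, 1.58 and 6.25 CPM and then at 113, 125, 9.42 and 71.1 CPM (4.31 ± 0.80, adjusted p = 0.0195). Day 7 replicate 3 was the low rat for Tnmd and also for Fmod, which went from 53.4 to 64.3 CPM up to 194, 228.5, 78.5 and 230.2 CPM (1.64 ± 0.32). Aspn and Fap, named after their values were seen, had log2 fold changes of 2.78 ± 0.67 and 0.87 ± 0.22. The main fibrillar collagen of granulation tissue, Col3a1, had one of 0.33 (adjusted p = 0.649), Fn1, fibronectin, one of -0.50 (0.356) and Acta2, the actin of myofibroblasts, one of -0.81 (0.317). These 3 were also chosen after their values were seen.

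Of 22 matrix proteases and inhibitors 1 rose and 0 fell in edgeR. Mmp12, the elastase of macrophages, stood at 68.2, 89.3, 29.9 and 36.0 CPM at day 3 and at 150, 452, 1002 and 659 CPM at day 7 (3.34 ± 0.62, adjusted p = 0.0195). The lowest day 7 rat was replicate 1, the rat with the most muscle RNA. Timp4, an inhibitor of matrix proteases, had a log2 fold change of 2.10 ± 0.60 (adjusted p = 0.0635). Among 23 growth factors and antagonists Igf1, insulin-like growth factor 1, rose. It stood at 59.5, 182, 128 and 163 CPM at day 3 and at 299, 287, 438 and 305 CPM at day 7 (1.32 ± 0.33, adjusted p = 0.0452), with 0 of the 8 fits that left out a rat calling it. Igf2 reached 1435 CPM in day 7 replicate 1 and 121 CPM in day 7 replicate 2, beside 47.8 to 199 CPM at day 3 (adjusted p = 0.0605). Wnt4, a Wnt ligand, had a log2 fold change of -3.09 ± 1.13 (adjusted p = 0.117).

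**Figure D3:**
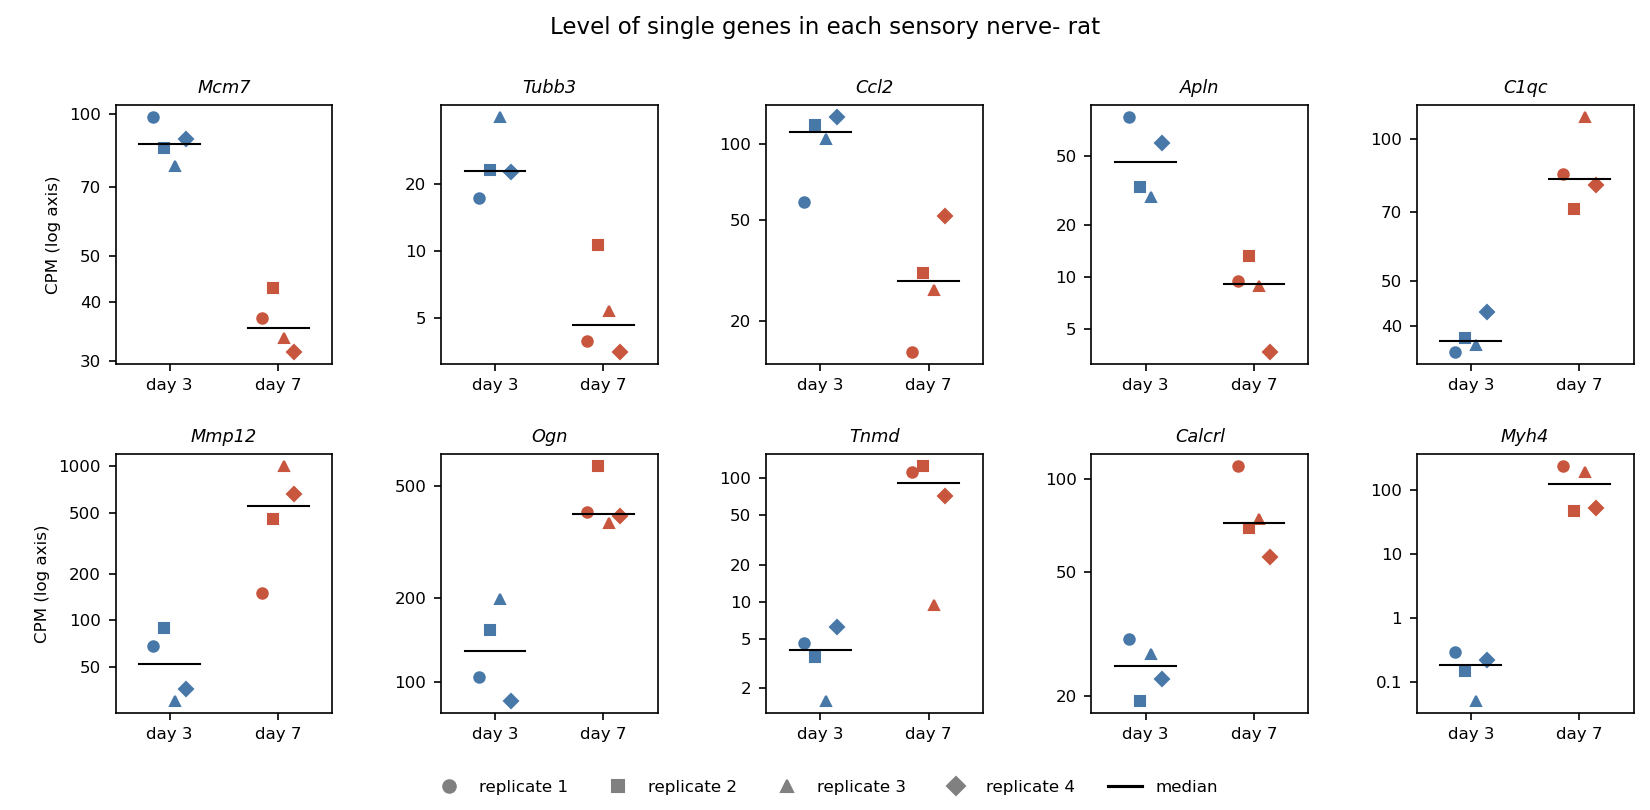
CPM of 10 genes in each sensory nerve- rat (log axis in every panel, with its own range), by day, with marker shapes for replicates 1 to 4 and a line at the median. In all 10 panels the day 7 rats lie wholly below (Mcm7, Tubb3, Ccl2, Apln) or wholly above (C1qc, Mmp12, Ogn, Tnmd, Calcrl, Myh4) the day 3 rats, and in Tnmd day 7 replicate 3 at 9.42 CPM is the nearest to day 3.

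Of 19 endothelial and angiogenic genes 2 rose and 1 fell, beside 3.68% and 6.77% of all tested genes, and 15 had a log2 fold change above 0 (median 0.67, and 0.33 without day 7 replicate 1). Tie1, a receptor of endothelial cells, went from 122, 110, 119 and 139 CPM to 198, 218, 215.5 and 177 CPM (0.72 ± 0.12, adjusted p = 0.0156). Cldn5, which seals endothelial junctions, went from 4.02, 6.22, 12.6 and 7.89 CPM to 47.4, 23.8, 14.5 and 29.0 CPM (1.90 ± 0.45, adjusted p = 0.0373). Apln, the peptide apelin that sprouting tip cells release, went the other way, from 84.4, 33.1, 29.1 and 59.6 CPM to 9.48, 13.3, 8.80 and 3.66 CPM (-2.55 ± 0.48, adjusted p = 0.0195).

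Among the 6 receptor and ligand genes of CGRP and adrenomedullin, 1 rose. Calcrl, the receptor that both peptides share, stood at 30.6, 19.3, 27.2 and 22.8 CPM at day 3 and at 110, 69.5, 74.2 and 56.1 CPM at day 7 (1.63 ± 0.24, adjusted p = 0.0140). Each day 7 rat was above each day 3 rat, and Calcrl is also expressed by endothelium. Ramp2, its partner for adrenomedullin, had 19.3 to 22.4 CPM and then 45.1, 32.2, 16.2 and 27.7 CPM (0.57 ± 0.28, adjusted p = 0.218). Adm, adrenomedullin, reached 48.7 CPM in day 3 replicate 4 and 3.36 to 11.4 CPM in the other 7 rats (adjusted p = 0.135). Calca, the gene of CGRP itself, was too low to test, with at most 0.360 CPM in any rat. In sensory neurons its messenger is made in ganglion cell bodies, which are not in the tissue. Whether this accounts for the low counts was not tested.

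Of 7 tested genes of sensory axons and nociceptors, 1 rose and 1 fell. Tubb3, the neuronal beta tubulin, stood at 17.3, 23.1, 39.7 and 22.6 CPM at day 3 and at 3.96, 10.7, 5.41 and 3.53 CPM at day 7 (-2.12 ± 0.42, adjusted p = 0.0227). Trpv1, the capsaicin receptor, stood at 0.300, 1.12, 0.511 and 0.451 CPM and then at 5.34, 2.30, 4.27 and 1.47 CPM (2.47 ± 0.56, adjusted p = 0.0328), from 5 to 22 reads per library at day 3 and 22 to 89 at day 7. Prph, a neuronal intermediate filament, had a log2 fold change of 1.35 ± 0.42 (adjusted p = 0.0807), and Gap43, of growing axons, one of -0.84 ± 0.46 (0.261).

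Schwann cell genes were set by 1 rat. Sox10, the factor that defines Schwann cells, stood at 106 CPM in day 3 replicate 2 and at 0.113 to 1.60 CPM in the other 7, and Mbp, a protein of myelin, at 312 CPM against 5.56 to 11.7 CPM. Neither the 11 myelin genes nor the 9 repair Schwann cell and neurotrophic genes held a call in edgeR, and 2 and 4 of them had an unadjusted p under 0.05. Their medians of -1.08 and -0.84 became 0.52 and 0.36 without that rat. Gdnf, a trophic factor of injured nerve, was likewise at 37.2 CPM there and at 0.666 to 4.34 CPM elsewhere. Artn, a relative of it, had 2.54 to 4.23 CPM at day 3 and 1.49 to 2.41 CPM at day 7 without overlap (-1.01 ± 0.28, adjusted p = 0.0562). Bdnf had a log2 fold change of 1.47 ± 0.56 (adjusted p = 0.129).

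Of the 26 lists, that of skeletal muscle had the highest median. Of 25 contractile genes all had a log2 fold change above 0 (median 6.22), 13 rose and 21 did not overlap, where 8.49% of all tested genes did not overlap in that direction. Myh4, the fastest myosin heavy chain, stood at 0.300, 0.153, 0.0511 and 0.225 CPM at day 3 and at 238, 47.6, 195 and 52.5 CPM at day 7 (9.49 ± 0.86, adjusted p = 0.0140). Mb, the oxygen store myoglobin, stood at 0.360, 0.561, 0.511 and 2.71 CPM and then at 2387, 258, 526 and 224 CPM (9.68 ± 1.30). Myh1, another fast myosin, went from 1.02 to 13.6 CPM up to 311 to 3272 CPM (7.95 ± 1.22). Myosin heavy chain genes are similar in sequence, so reads can be shared out among them. The list summed to 61.6, 222, 53.3 and 1490 CPM at day 3 and to 73220, 8427, 14800 and 4306 CPM at day 7. Day 7 replicate 1 stood far above the others and day 3 replicate 4 far above the rest of its day. Without the first edgeR still called 13 of the 25 (median 4.60), beside 3.02% of all genes as higher. Without the second it called 20 (median 8.96), beside 1.71% of all genes. It called 0 without day 3 replicate 1 or day 7 replicate 3, and 5 without day 3 replicate 2 (0.855% of all genes). Without day 3 replicate 3 it called 9 (2.22%), and the medians of these fits were 5.89 to 6.46. DESeq2 called 22 of the 25 as higher with all rats, beside 10.2% of all genes, and 16 to 22 with each rat left out. With hemoglobin and muscle genes left out of the counts, edgeR called 1354 genes, 1288 of them among the 1524, and 43.3% were higher.

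Genes of muscle formation were also higher in value, with all 15 above 0 and a median of 2.35, and 2 passed. Myh8, the perinatal myosin, stood at 0.840 to 1.86 CPM at day 3 and at 7167, 677, 1075 and 260 CPM at day 7 (10.83 ± 1.39, adjusted p = 0.0140). Myf6, a regulator of late muscle differentiation, stood at 0.0600, 0.153, 0.0511 and 2.71 CPM and then at 112, 20.02, 42.9 and 11.3 CPM (5.97 ± 1.35, adjusted p = 0.0325). Chrnd, a subunit of the muscle acetylcholine receptor, had 18.5 CPM in day 3 replicate 4 and at most 0.663 CPM in the other day 3 rats, and overlapped with day 7 at 9.98 to 154 CPM (adjusted p = 0.182). Without that rat edgeR called 7 of the 15 and the median was 5.90.

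The 250 bases before the starts of Myh4 and Acta1, the skeletal actin, are shown as examples of muscle promoters, with the E-box CAGCTG in capitals, the letters that myogenic factors bind. They are from RefSeq on GRCr8, Myh4 at chr10:52421898-52422147 on the plus strand and Acta1 at chr19:68784195-68784444 on the minus strand.
Myh4: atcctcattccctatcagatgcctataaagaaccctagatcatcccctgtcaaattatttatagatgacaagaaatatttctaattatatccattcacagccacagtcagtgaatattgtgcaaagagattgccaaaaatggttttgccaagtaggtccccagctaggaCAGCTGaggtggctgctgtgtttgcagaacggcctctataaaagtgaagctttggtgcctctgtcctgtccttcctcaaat
Acta1: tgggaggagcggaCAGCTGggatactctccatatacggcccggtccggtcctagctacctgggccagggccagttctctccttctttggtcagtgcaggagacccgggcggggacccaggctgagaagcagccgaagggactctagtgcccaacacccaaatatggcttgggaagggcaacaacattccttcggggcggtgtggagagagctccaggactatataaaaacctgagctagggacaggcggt
Of the 25 contractile genes 21 matched a promoter, and 7 of these (33.3%) held CAGCTG, against 11.9% of all 27457 promoters. The letters TATTTTTA of a MEF2 site, searched on both strands, were in 0 of the 21 windows and in 2.51% of all. Acta1 itself had a log2 fold change of 5.93 (adjusted p = 0.0967).

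**Figure D4:**
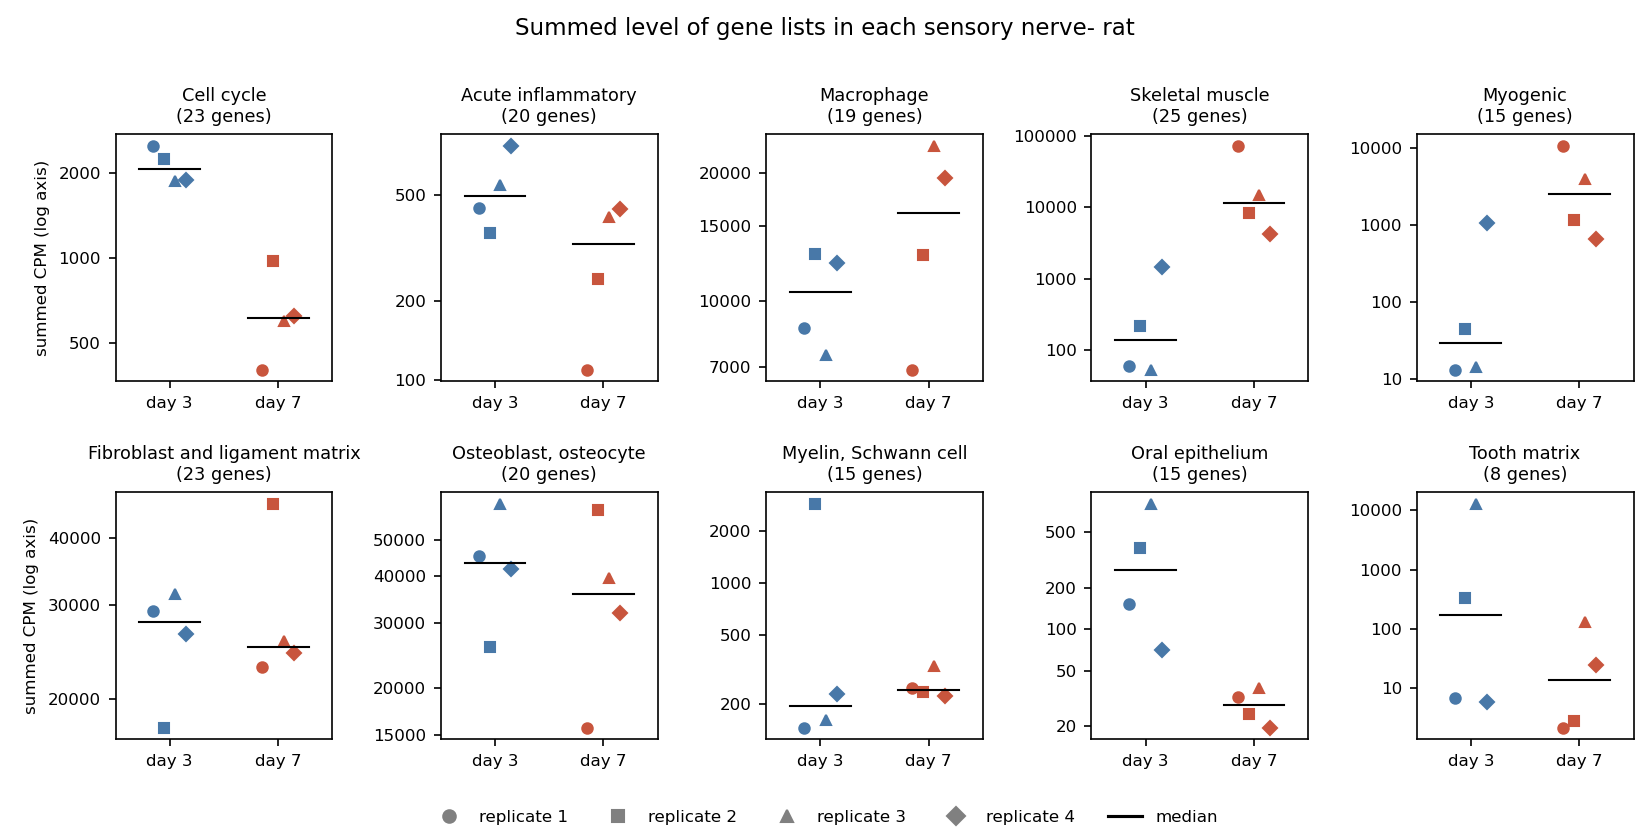
Summed CPM of 10 gene lists in each sensory nerve- rat (log axis in every panel, with its own range), by day, with marker shapes for replicates 1 to 4 and a line at the median. The cell cycle sums of day 7 (403 to 976) lie below those of day 3 (1877 to 2495), the muscle sums of day 7 lie above day 3 with replicate 1 at 73220, and single rats set the Schwann cell and tooth panels at day 3.

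Genes of energy metabolism were counted by pathway. Of 18 glycolysis and hypoxia genes 4 fell and 0 rose, with a median of -0.35. Eno1, a glycolytic enolase, stood at 1549, 1234, 1142 and 1979 CPM at day 3 and at 413, 665, 641 and 794 CPM at day 7 (-1.23 ± 0.27, adjusted p = 0.0288). Pgk1, another glycolytic enzyme, went from 462 to 1080 CPM down to 285 to 386.5 CPM (-1.17 ± 0.26). Pdk1, a kinase that inhibits pyruvate dehydrogenase, went from 28.1 to 56.5 CPM down to 17.0 to 21.5 CPM (-0.98 ± 0.22). The fourth, Ero1a, an oxidase of the endoplasmic reticulum that hypoxia induces, fell by 1.502 on the log2 scale (adjusted p = 0.0423). Gapdh, often used as a reference gene, stood at 2144, 2026, 1781 and 2801 CPM and then at 3176, 1352, 1449 and 1364 CPM (-0.25 ± 0.34, adjusted p = 0.657). Without day 7 replicate 1, where Gapdh and the muscle genes were highest, the list's median was -0.86 and edgeR called 2 as lower, beside 6.2% of all genes.

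All 18 OXPHOS subunits, parts of the mitochondrial respiratory chain, had a log2 fold change above 0 (median 0.52), but edgeR called 0 and DESeq2 2, with 4 at an unadjusted p under 0.05. Their sum was 9568 CPM in day 7 replicate 1 and 3617 to 4098 CPM in the other day 7 rats, beside 3245 to 4468 CPM at day 3. Without that rat the median was 0.09 and 12 of 18 were above 0. Ndufb8, of complex I, had 84.04 to 98.9 CPM at day 3 and 234, 107, 117 and 120 CPM at day 7 (0.66 ± 0.25, adjusted p = 0.132). For Cox7c and Cox6c, of complex IV, the values were 0.70 ± 0.24 (adjusted p = 0.0982) and 0.73 ± 0.25 (adjusted p = 0.105).

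Epithelial genes fell. Of 10 tested genes of oral epithelium 7 were lower, with a median of -4.19. Krt5, a keratin of basal cells, stood at 53.4, 140, 300.1 and 19.9 CPM at day 3 and at 0.180, 0.0574, 4.07 and 0.400 CPM at day 7 (-6.72 ± 1.40, adjusted p = 0.0255). Its partner Krt14 stood at 32.8, 96.0, 185 and 10.5 CPM and then at 0.0600, 0.115, 2.73 and 0.0666 CPM (-6.69 ± 1.43). Krt17, a keratin of wound epithelium and skin appendages, stood at 6.48 to 86.0 CPM at day 3 and at 0, 0, 0.669 and 0.0666 CPM at day 7 (-7.49 ± 1.29, adjusted p = 0.0165). The rats of day 3 themselves spread over more than a factor of 10, with replicate 3 the highest and replicate 4 the lowest, and without replicate 3 edgeR called 3, beside 4.91% of all genes as lower. Over the 8 fits that left out a rat it called 0 to 7, and the median lay between -4.65 and -3.38. In such fits DESeq2 called 7 to 9, against 8 with all rats, where it called 11.8% of all genes as lower. Keratin genes resemble each other, so their reads can be shared out. The sensory nerve+ rats gave log2 fold changes of -1.96 ± 2.33 for Krt5 and -2.59 ± 2.20 for Krt14, neither of which passed.

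Tooth matrix genes came from few rats. Amelx, the enamel protein amelogenin, stood at 0.660, 128, 6427 and 1.75 CPM at day 3 and at 1.38, 1.38, 27.95 and 1.73 CPM at day 7 (-7.65 ± 2.98, adjusted p = 0.136), and Ambn, ameloblastin, at 1.62, 108, 5642 and 1.41 CPM and then 0.600, 0.918, 18.3 and 2.13 CPM. Day 3 replicates 2 and 3 held nearly all of it. Odam, an enamel organ and junctional epithelium protein, stood at 3.90, 64.6, 96.5 and 2.25 CPM at day 3 and at 0 in all 4 rats of day 7 (adjusted p = 0.0492). Against a floor of 3 counts per library, 0.175 CPM, its mean of 41.8 CPM at day 3 was at least 239-fold higher, or at least 135-fold without replicate 3, and 0 of the 8 fits that left out a rat called it. The list's median of 5 tested genes was -7.65 with Odam at its fitted value or at this bound, and -2.41 without day 3 replicate 3.

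Blood and fat genes completed the check of other tissues. The median log2 fold change of the 11 erythroid genes was 0.01, with 0 calls in edgeR and in DESeq2, with 0 at an unadjusted p under 0.05. Among them Klf1, Slc4a1 and Epb42, genes of red cell precursors and membrane, had log2 fold changes of -0.34 ± 0.90, 0.25 ± 1.04 and 0.12 ± 0.94. The summed list ran from 19120 to 129600 CPM at day 3 and from 14960 to 148300 CPM at day 7, so single rats differed far more than the days. Of 8 fat cell genes 3 were tested and 0 called in edgeR, where DESeq2 called 2 and all 3 had an unadjusted p under 0.05. Fabp4, a fatty acid carrier of fat cells, macrophages and endothelium, had 97.0 to 258 CPM at day 3 and 350 to 636 CPM at day 7 (1.21 ± 0.33, adjusted p = 0.0538). Lipe, which releases fatty acids from stores, had 7.68 to 15.9 CPM and then 17.5 to 57.8 CPM (1.496 ± 0.43, adjusted p = 0.0619). Cfd, the fat cell protease adipsin, had a log2 fold change of 1.42 ± 0.58. Fos, an immediate early gene, had one of 0.16 ± 0.25 (adjusted p = 0.707).

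The same 2 days in the sensory nerve+ rats, 3 against 4 with both days in 1 table and no rat in common, gave 1002 calls among 15016 tested genes (6.67%), 733 higher (4.88%) and 269 lower (1.79%). The share of higher calls was 73.1% there, 56.0% with DESeq2, 87.6% when libraries were scaled by their totals and 45.04% with all 23 rats in 1 fit, where lower calls outnumbered higher ones. Of the 1524 genes called in the sensory nerve- rats, 1520 were tested in the sensory nerve+ rats, and 1514 of these (99.6%) had the same sign, against 79.5% of all genes tested in both. Both comparisons called 469 genes, 30.8% of the sensory nerve- calls and 46.8% of the sensory nerve+ calls. The cell cycle list had a median of -1.38 there with 19 of 23 lower, the acute inflammatory list one of -2.35 with 6 lower and the skeletal muscle list one of 8.02 with 24 of 25 higher. Calcrl (1.58 ± 0.33), Mmp12 (3.80 ± 0.61), Il34 (1.70 ± 0.26), Apln (-2.34 ± 0.47), Tubb3 (-1.68 ± 0.35), Trpv1 (2.53 ± 0.50) and Ogn (2.38 ± 0.44) passed in the same direction. The C1q chains, at 0.70 to 1.12, did not pass there. Arg1 (-5.14 ± 0.81, adjusted p = 0.0169) passed in the sensory nerve+ rats but not in the sensory nerve- rats.

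The difference between the 2 courses was tested as an interaction of nerve and day over the 15 rats. edgeR called 0 of 15526 genes (smallest adjusted p over 0.999, 132 genes or 0.85% at an unadjusted p under 0.05), and DESeq2 called 1. No gene named above can therefore be said to differ between nerve groups in its course from day 3 to day 7, and a p that misses the threshold does not show that the courses were alike. The genes with the smallest p are given as values. Acvr1b, an activin receptor, had a log2 fold change of 0.30 ± 0.12 without and -0.31 ± 0.14 with the nerve, Il13ra1, a receptor chain for interleukin 13, 0.14 ± 0.14 and -0.60 ± 0.21, and Ttc17, a cytoplasmic repeat protein, 0.38 ± 0.10 and 0.07 ± 0.12. In the other direction, Rpa3, a subunit of the single-strand DNA binding complex, had -0.90 ± 0.14 and -0.25 ± 0.14, and the unnamed gene LOC103694169 had -1.39 ± 0.31 and 0.70 ± 0.50. Ccdc187 had the smallest unadjusted interaction p of the 6 in edgeR (0.00187, adjusted p over 0.999), with an interaction of -4.80 ± 1.24 on the log2 scale. It had 0.0666 to 1.92 CPM in the sensory nerve- rats and was not tested within them. Since the sensory nerve- libraries of day 7 alone are in the second table, table and interaction cannot be told apart.

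**Figure D5:**
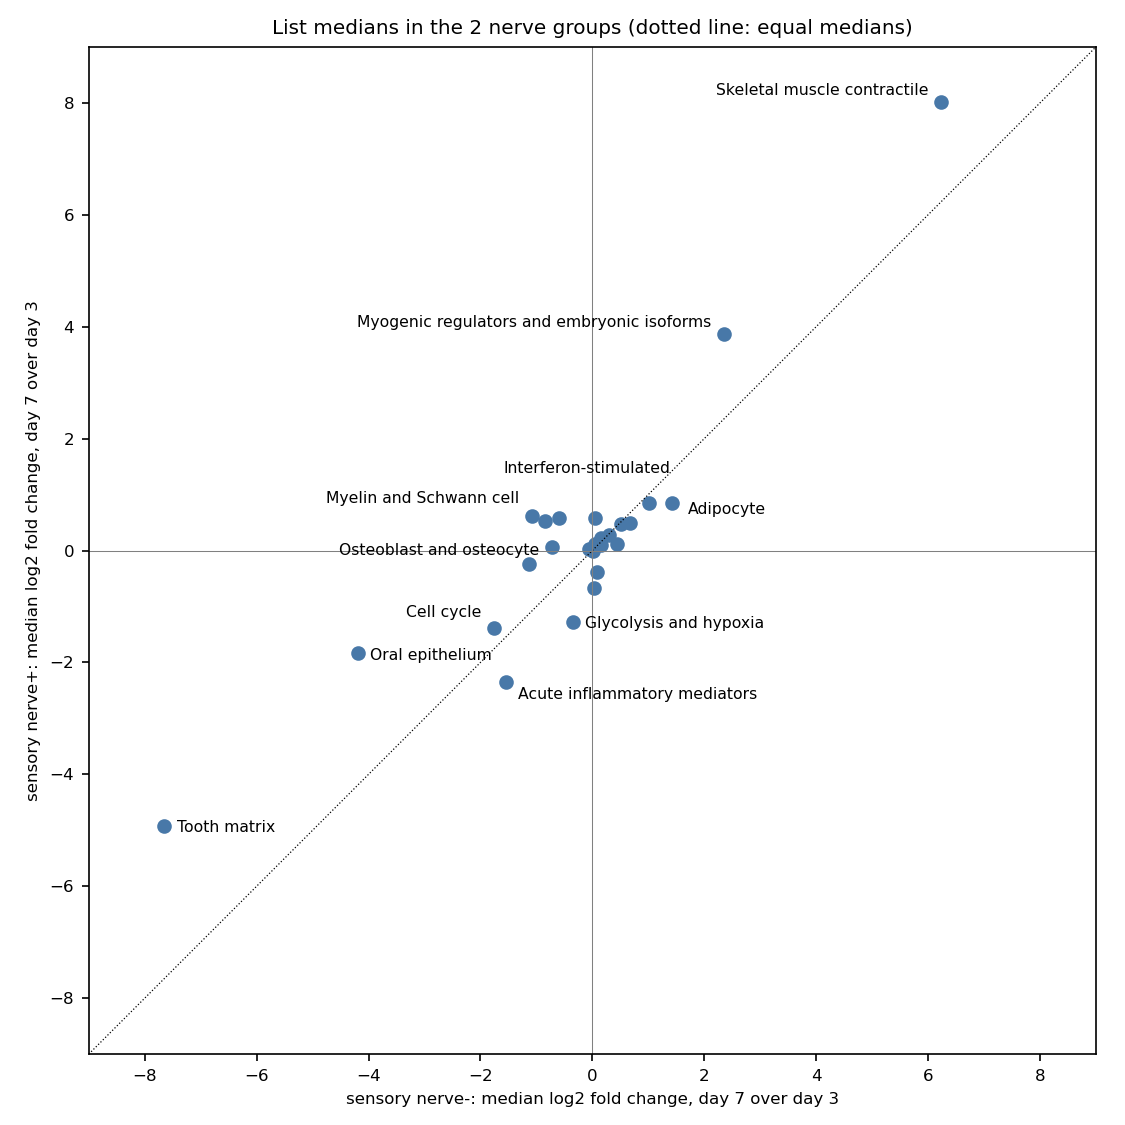
Median log2 fold change of each of the 26 gene lists between day 7 and day 3 in the sensory nerve- rats (horizontal axis) and in the sensory nerve+ rats (vertical axis), with a dotted line where both are equal. Skeletal muscle (6.22 and 8.02) and tooth matrix (-7.65 and -4.93) are at the ends, and myelin and Schwann cell genes (-1.08 and 0.62) lie on opposite sides of 0, where day 3 replicate 2 sets the first value.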

How the data were processed

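Healing tissue of 23 rats was compared, of which the 8 sensory nerve- rats of days 3 and 7 are the subject. Per the labels, the authors removed low-quality reads and aligned the rest to mRatBN7.2 with HISAT. Bowtie2 is also named in the submitters' processing notes, and the counting program is not given in the sources used here. The authors deposited an expected count per gene for 20022 genes in 2 tables, joined here on gene symbol. Expected counts share out reads that map to several genes, so similar copies can trade reads, and overlapping genes are uncertain because the strand setting is not given. They were rounded to whole numbers. The day of the day 7 sensory nerve- samples is given by their titles alone.

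Counts were scaled by TMM, low genes were removed by filterByExpr, and groups were compared with edgeR 4.0.16's quasi-likelihood test in R 4.3.3, with Benjamini-Hochberg adjustment over all tested genes and a threshold of 0.05. Fold changes are day 7 over day 3. Standard errors were derived from the F statistic. Levels are TMM-scaled CPM, which is not per length, so levels of different genes are not compared. Rats are separate animals by their labels, and intervals for counting error were not used. The floor for a gene at 0 was 3 counts per library, for counting error only.

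The 26 lists (437 genes, 433 in the tables, 383 tested) and the samples were chosen with earlier results of these data known. Lists are described by counts and medians, with no test of the list. Named genes are, in each list, the 3 with the smallest p, the 8 with the smallest p in each direction among genes without overlap, the genes of the study's text, and the 3 with the smallest interaction p in each direction, some of which are not reported here. Alternatives were DESeq2 1.42.0, RLE size factors, library totals, no filter or at least 1 CPM in 4 rats, the replicate number as a block, each rat left out, all 23 rats in 1 fit, and counts without hemoglobin and muscle genes. Robust edgeR, limma-trend 3.58.1 (prior count of 2) and both other tools with each rat left out were added after the data had been seen. Pairs of libraries were checked for duplicates, and 0 were found. The tests were tried on simulated counts. Promoters are RefSeq sequences of GRCr8, matched by symbol. Figures used matplotlib 3.10.9 and Python 3.11.15. The in vitro samples were not used here.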

Additional observations from a re-analysis of the deposited data

Results flagged for a closer look

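In 49 of 268 groups of 4 rats (list sums and single named genes at 1 day), the highest or the lowest rat stood apart from the other 3 by more than Dixon's 95% critical value. For normally distributed values about 1 in 20 such groups is flagged. CPM were used untransformed, and all flags except that of Ifit3 were of the highest rat. The 49 flags can therefore not be read against that rate, nor are the genes of a list independent. No explanation was weighed, and each flag is given as a value.

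Day 3 replicate 4 was highest in the summed skeletal muscle genes (1490 CPM) and myogenic genes (1074 CPM), and in Mb and Myf6 (2.705 CPM each), Chrnd (18.48 CPM), Adm (48.68 CPM) and Arg1 (329.5 CPM). Day 3 replicate 2 was highest in the summed myelin and Schwann cell genes (2888 CPM) and in Mbp (312.1 CPM), Sox10 (106.1 CPM), Gdnf (37.16 CPM), Abi3bp (20.03 CPM) and Comp (5.506 CPM). Day 3 replicate 3 was highest in the summed tooth matrix genes (12910 CPM), in Amelx (6427 CPM) and Ambn (5642 CPM), and in Hapln1 (202.4 CPM), Mlec (80.26 CPM), Ptgs2 (16.75 CPM), Timp4 (2.042 CPM) and Bdnf (1.276 CPM). Day 3 replicate 1 was highest in Ctsk (1715 CPM), in the neutrophil genes Camp (51.08 CPM) and Prtn3 (7.682 CPM), and in LOC103694169 (16.51 CPM) and Ccdc187 (1.921 CPM).

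Day 7 replicate 1 was highest in the summed skeletal muscle genes (73220 CPM), OXPHOS subunits (9568 CPM) and glycolysis genes (9209 CPM), and in Myh8 (7167 CPM), Gapdh (3176 CPM), Mb (2387 CPM), Ndufb8 (234.3 CPM), Ifit2 (78.28 CPM) and Fos (36.8 CPM). Day 7 replicate 2 was highest in the summed fibroblast and periodontal ligament genes (46320 CPM), in Ogn (590.9 CPM), Rrm1 (95.47 CPM) and Il13ra1 (89.62 CPM). Day 7 replicate 3 was highest in the summed tooth matrix genes (133.4 CPM), Fabp4 (635.7 CPM), Igf1 (437.6 CPM), C1qa (212.0 CPM), Amelx (27.95 CPM), Ambn (18.27 CPM), Krt5 (4.066 CPM), Krt14 (2.728 CPM) and Krt17 (0.6692 CPM), and lowest in Ifit3 (12.35 CPM).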

How the results depend on the processing

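The count of genes that differed between day 7 and day 3 in the sensory nerve- rats (1524, of which 537 higher and 987 lower) was 3217 (1492 and 1725) with DESeq2 and 2287 (1049 higher) with all 23 rats in 1 fit, and 1174 to 1649 with RLE size factors, library totals, no filter, a stricter filter, without hemoglobin and muscle genes, with robust edgeR or with limma-trend. Leaving out each rat gave 0 to 1359 calls (0 to 445 higher, 0 to 914 lower) in edgeR, 2387 to 3254 (1073 to 1532 and 1314 to 1722) in DESeq2 and 519 to 1504 (147 to 506 and 372 to 998) in limma-trend, with 508 without day 3 replicate 2, 686 without day 3 replicate 4 and 779 without day 7 replicate 4 in edgeR. The cause was not tested. In the sensory nerve+ rats the count of 1002 (733 and 269) was 2808 (1574 and 1234) with DESeq2, 579 (72 lower) with library totals, 468 higher and 571 lower with all 23 rats, and 254 to 1547 (234 to 1027 higher, 19 to 520 lower) with each rat left out, lowest without day 3 replicate 3 and highest without day 7 replicate 3, the others past 1.5 times being 276 (day 3 replicate 1), 318, 283 and 510 (day 7 replicates 1, 2 and 4). The interaction gave 0 calls with each rat left out.

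When replicate numbers entered as a block, the edgeR calls came to 2 in the sensory nerve- rats (2 higher, 0 lower, 3218 at an unadjusted p under 0.05), 122 in the sensory nerve+ rats (112 and 10) and 1 for the interaction. Same-numbered sensory nerve- rats had correlations of -0.297 to 0.0635 in their deviations, and rats of other numbers -0.233 to 0.330. Of 8 rats 0 correlated best with their own number. These values show no pairing by number, but with 4 same-numbered pairs they cannot exclude one.

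List medians moved with the block to -0.85 (acute inflammatory), 4.56 (myogenic), 7.51 (skeletal muscle), -0.44 (neutrophil), -0.32 (myelin) and -3.55 (tooth), with limma-trend to -0.81 (acute inflammatory), 4.04 (myogenic), 7.21 (skeletal muscle), -0.51 (neutrophil), -0.39 (myelin) and -3.33 (tooth), without a filter to -0.88 (sensory axon, also -0.33 with a stricter filter and -1.19 with all 23 rats) and 0.73 (adipocyte). With each rat left out the medians ran from -1.95 to -0.47 (acute inflammatory), -1.99 to 0.50 (neutrophil), -0.036 to 0.39 (fibroblast), -0.86 to -0.14 (glycolysis), 4.60 to 8.96 (skeletal muscle), 1.91 to 5.90 (myogenic), -1.72 to 0.52 (myelin), -1.12 to 0.36 (repair Schwann cell), -0.99 to 0.22 (cartilage), -0.89 to -0.25 (osteoblast), 0.16 to 0.98 (osteoclast), 0.33 to 0.80 (endothelium), 0.65 to 1.21 (interferon), -0.69 to 0.66 (erythroid) and -10.1 to -2.41 (tooth). The edgeR calls in these fits ran from 0 to 23 (cell cycle), 0 to 20 (skeletal muscle), 0 to 7 (oral epithelium and myogenic), 0 to 6 (acute inflammatory), 0 to 5 (fibroblast), 0 to 4 (glycolysis) and 0 to 3 (macrophage). Of single named genes no called value changed sign under these alternatives. With a rat left out this sign is fixed beforehand in genes without overlap. All called genes that the naming rules picked were such genes, except Ifit3. Cxcl1 or Cxcl2, named beyond these rules, also overlapped. Depth limited genes under about 1 CPM, such as Calca and Krt17 at day 7.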
